A study of Mus musculus with 27 samples.

Results

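The comparison concerns X-linked genes in mouse embryonic stem (ES) cells between 3 h and 24 h of Xist induction. It rests on 4 of the 27 samples of the series, chosen by their labels: 2 libraries of the WT line at 3 h of doxycycline and 2 at 24 h. All 270 genes of the X chromosome table that holds both times were used. The cells are female, from a 129S X Cast cross, and they were kept in ES medium on mitomycin-inactivated fibroblast feeders. In every X line a TetOn promoter takes the place of the Xist promoter on the 129S allele, and a Bgl stem-loop array sits at the 3' end of Xist. The sample titles of WT, and of the SpenKO and CIZ1 knockout lines used below, carry the name BglHalo. Its Halo part is not described further here. The labels name WT as 1 line (10H). They do not say that its libraries came from separate cultures, so the spread between these may be technical. The p-values per gene use a spread pooled over all 17 libraries of the table, other lines included, and reflect only how far these libraries differ. Doxycycline was given at 1.0 to 1.5 µg/mL. The growth protocol, worded alike for all samples, mentions only 24 h of induction, so the 3 h time rests on the sample titles and time labels. The same WT line without doxycycline (0 h, 2 libraries) gave the starting point. For comparison the text uses a line labelled SpenKO (2 libraries at 0 h, 1 at 3 h, 2 at 24 h), 3 SPOCmut clones with a mutated SPOC domain of Spen (0 h and 24 h), a CIZ1 knockout (2 libraries at 0 h and 2 at 24 h), and 1 library each of neural precursor cells (NPC) of the WT and CIZ1 KO lines at day 30. The labels do not say if doxycycline was added to the NPC cultures.

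Xist is a long noncoding RNA that spreads along the chromosome that makes it and shuts off its genes. SPEN binds Xist RNA and brings corepressors to active promoters through its SPOC domain, and Polycomb complexes and other chromatin changes follow. Genes are known to respond at different speeds, and a few, the escape genes, stay active on the inactive X. The RNA measured was bound to chromatin and is rich in transcripts still being made, so it follows transcription more closely than total RNA. Each value is the share of a gene's allele-assigned reads that came from 1 allele, from 0 to 1. It is read here as the share of the 129S allele, since Xist itself stood at 0.980 to 0.999 in the 6 WT libraries. A ratio of 0.5 means equal RNA from both X chromosomes. Ratios carry no expression level, so less RNA from the 129S X and more RNA from the Cast X cannot be told apart, and markers of the ES state could not be checked. The depth of the libraries is unknown.

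The timing of the change is described as an early step (3 h minus 0 h) and a late step (24 h minus 3 h). The late step covers far more hours than the early step, and changes were not divided by time. A larger late step thus does not by itself show a delay or a faster fall. Both steps use the same 3 h libraries, so a value that is high at 3 h by chance raises the first difference and lowers the second. Promoters of 4 genes are printed because these genes stand for the timing patterns described: Chic1 and Mageb16, in which the early step was the larger, and Msn and Smarca1, among the largest late falls. Each runs from 250 bases before to 50 after the start site, 5′ to 3′ on the gene's strand, from RefSeq (GRCm38.p6), with every CG in capitals. They lie at chrX:103356226-103356525 (Chic1, + strand), chrX:79671386-79671685 (Mageb16, - strand), chrX:96095795-96096094 (Msn, + strand) and chrX:47892564-47892863 (Smarca1, - strand).
Chic1: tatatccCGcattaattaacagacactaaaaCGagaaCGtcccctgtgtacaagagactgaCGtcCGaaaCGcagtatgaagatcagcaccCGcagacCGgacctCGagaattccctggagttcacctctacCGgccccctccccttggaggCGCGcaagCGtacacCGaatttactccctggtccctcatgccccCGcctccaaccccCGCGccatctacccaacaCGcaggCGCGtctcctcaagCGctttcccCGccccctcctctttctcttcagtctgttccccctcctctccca
Mageb16: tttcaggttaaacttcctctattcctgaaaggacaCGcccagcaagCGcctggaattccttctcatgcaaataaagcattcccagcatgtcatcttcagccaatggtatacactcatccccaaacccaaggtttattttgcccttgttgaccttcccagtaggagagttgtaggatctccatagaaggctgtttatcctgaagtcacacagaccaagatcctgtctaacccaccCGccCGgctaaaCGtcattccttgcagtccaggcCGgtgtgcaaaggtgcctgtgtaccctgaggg
Msn: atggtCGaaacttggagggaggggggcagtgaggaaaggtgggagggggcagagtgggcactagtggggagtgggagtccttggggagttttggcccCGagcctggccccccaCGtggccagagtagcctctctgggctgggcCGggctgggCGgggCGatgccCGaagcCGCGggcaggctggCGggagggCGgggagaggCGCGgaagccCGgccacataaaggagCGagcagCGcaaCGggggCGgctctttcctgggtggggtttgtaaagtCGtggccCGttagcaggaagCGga
Smarca1: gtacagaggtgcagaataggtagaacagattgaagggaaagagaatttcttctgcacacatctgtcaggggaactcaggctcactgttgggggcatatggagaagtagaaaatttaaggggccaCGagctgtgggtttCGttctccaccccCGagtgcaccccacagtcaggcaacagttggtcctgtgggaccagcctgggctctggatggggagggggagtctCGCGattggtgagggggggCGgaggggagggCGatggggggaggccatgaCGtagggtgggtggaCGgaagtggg
The Chic1 promoter holds 22 CG and that of Mageb16 6, while those of Msn and Smarca1 hold 21 and 9. Both timing patterns were thus found with many and with few CG.

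Most of the fall in the 129S share took place in the late step, after 3 h, which is also much the longer step. The median ratio over the 270 genes was 0.514 and 0.504 in the WT libraries at 0 h, 0.481 and 0.484 at 3 h, and 0.291 and 0.305 at 24 h. The 24 h libraries lay far below the others, while the 3 h libraries lay only slightly below the untreated ones. The group means were 0.483 ± 0.00228 at 3 h and 0.298 ± 0.00968 at 24 h (SD, n = 2 each), a difference of -0.184 (exact two-sided permutation p = 0.3333, the smallest that 2 against 2 libraries can give). At 3 h 221 and 220 genes were at 0.4 or above in the 2 libraries, and 1 gene in each was below 0.1. At 24 h 52 and 59 genes were at 0.4 or above, and 20 and 18 were below 0.1. SpenKO had medians of 0.515 at 3 h and of 0.503 and 0.506 at 24 h.

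**Figure D1:**
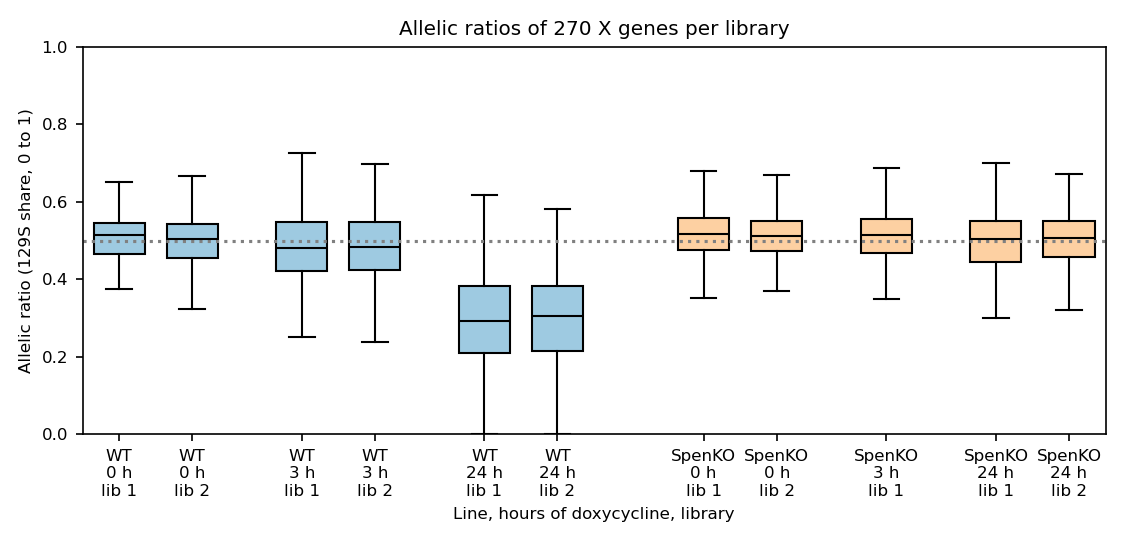
Allelic ratio (129S share, 0 to 1) of the 270 X genes in each WT and SpenKO library at 0, 3 and 24 h of doxycycline; boxes show the median and quartiles, and whiskers reach the last gene within 1.5 box lengths. The WT boxes at 24 h lie below all others, with medians of 0.291 and 0.305.

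Gene by gene, 231 of 270 genes fell from 3 h to 24 h (85.6%) and 1 rose (0.370%) in limma at an adjusted p under 0.05 (Benjamini-Hochberg over the 270 genes). At an unadjusted p under 0.05 the counts were 232 and 1. The median change was -0.178, and a gene's 95% interval reached 0.0593 to either side in the median gene. Both 24 h libraries were below both 3 h libraries in 246 genes (91.1%) and above them in 2 (0.741%). When only changes beyond 0.1 were tested, 153 genes fell. In the early step 46 genes fell (17.0%) and 14 rose (5.19%). From 0 h to 24 h 240 fell (88.9%) and 0 rose (0.00%; 243 and 0 at an unadjusted p under 0.05).

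Whether the steps differed in size was tested directly, as the late step minus the early step in the same fit. The test compares sizes and not rates, so a gene that fell steadily up to 24 h could pass as a larger late step. The late step was the larger fall in 154 genes (57.0%) and the early step in 5 (1.85%), and the other genes did not pass this test in either direction. For 225 genes whose fall from 0 h to 24 h passed and reached 0.1, the early share was computed, the percentage of the whole fall already present at 3 h. Its median was 12.6%, with quartiles of -7.18% and 30.0%. A share below 0 means that the gene's mean was higher at 3 h than at 0 h, and 75 genes had such a share. Only 14 of all 270 genes passed as an early rise, so most of these 75 differences did not pass. A further 74 genes had made under 25% of their fall by 3 h, 59 had made 25% to 50%, and 17 at least 50%.

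By the calls in each step, 178 genes fell only in the late step, 39 fell in both, 14 rose at 3 h and then fell, and 7 had fallen at 3 h and did not pass afterwards. The remaining 32 followed none of these patterns. The group of 7 is called finished at 3 h, as a description of the calls. Of the 178 late genes, 124 passed the test that the late step was larger and 54 passed neither way; the groups were formed from the same contrasts, so this is a description. These groups rest on early calls made with a spread shared by all 17 libraries: with only the 0 h and 3 h libraries in the fit, 1 gene fell and 1 rose. With the WT libraries alone, 5 genes were finished at 3 h (4 of them among the 7), 16 fell in both steps, and 5 rose and then fell.

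The genes whose larger step came first were few. Tsix (103431516 to 103484957, mm10), the antisense transcript that overlaps Xist and restrains it in ES cells, was at 0.500 and 0.521 at 0 h, 0.257 and 0.245 at 3 h, and 0.230 and 0.199 at 24 h. The 3 h libraries were already near their 24 h level, and the 2 times did not overlap. Its late change was -0.0370 ± 0.0211 (SE, 95% interval -0.0838 to 0.00975, adjusted p = 0.123 in limma), against an early change of -0.259 ± 0.0211 (adjusted p = 2.40e-05). The late step minus the early step was 0.222 ± 0.0366 (adjusted p = 0.000484), and this passed with each WT library left out. Reads of Tsix and Xist overlap and the strand setting of the counting is not given, so the ratio of Tsix is uncertain.

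Mageb16 (79623230 to 79671435), a germline gene of the MAGE family, was at 0.855 and 0.821 at 0 h, 0.658 and 0.646 at 3 h, and 0.618 and 0.639 at 24 h. It lost 129S share at once and then stayed well above 0.5. Its early change was -0.186 ± 0.0201 and its late change -0.0234 ± 0.0201 (adjusted p = 0.284 in limma), with a difference of steps of 0.162 ± 0.0348 (adjusted p = 0.00247). Mageb16 belongs to a family of similar copies, whose reads may be shared.

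Foxo4 (101254527 to 101260873), a forkhead transcription factor gene, was at 0.514 and 0.508, then at 0.250 and 0.176, then at 0.298 and 0.176. The 3 h and 24 h libraries overlapped. The late change was 0.0239 ± 0.0622 (95% interval -0.114 to 0.162) and the difference of steps 0.321 ± 0.108 (adjusted p = 0.0246 in limma). That difference did not pass without the second 3 h library (0.248, adjusted p = 0.167) or the first 24 h library (0.261, adjusted p = 0.0696), and the sign of the late change then turned (-0.0128 and -0.0368).

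Chic1 (103356475 to 103396118), a neighbour of Xist, went from 0.486 and 0.514 to 0.331 and 0.325 at 3 h and to 0.228 and 0.257 at 24 h. Its libraries did not overlap between any of the times. It fell in both steps, by 0.172 ± 0.0150 and then by 0.0856 ± 0.0150 (adjusted p = 2.45e-05 and 0.000303 in limma), and the early step was larger by 0.0862 ± 0.0259 (adjusted p = 0.0157). Without either 3 h library that difference did not pass (0.0927 and 0.0797, adjusted p = 0.0526 and 0.0907).

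The fifth gene was Slc25a5, an ADP/ATP translocase gene of the inner mitochondrial membrane and the only gene that rose in the late step. It was at 0.463 and 0.471 at 0 h, 0.383 and 0.374 at 3 h, and 0.462 and 0.581 at 24 h. The 3 h libraries were the lowest and of those at 24 h one lay near the starting level and the other above it. The rise of 0.143 ± 0.0473 (adjusted p = 0.0152 in limma) did not pass without the second 3 h library (0.139, adjusted p = 0.0581) or the second 24 h library (0.0833, adjusted p = 0.151), and its difference of steps (0.232, adjusted p = 0.0304) did not pass without any of 5 of the 6 WT libraries (0.172 to 0.241). Slc25a5 has many near-identical copies, so its reads may be shared.

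The other 4 genes finished at 3 h did not pass the test between the steps. They were Xlr3a, a lymphocyte-regulated family gene, Prkx, a protein kinase gene, Awat2, an acyltransferase gene, and Atp6ap1, an accessory subunit gene of the vacuolar proton pump. Their late changes ran from -0.0827 (Awat2) to 0.0180 (Atp6ap1), and the differences of steps from 0.0804 (Prkx) to 0.117 (Xlr3a). Awat2, at 0.287 and 0.397 at 3 h and 0.295 and 0.224 at 24 h, passed as a late fall without the first 3 h library (-0.137, adjusted p = 0.0341 in limma).

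**Figure D2:**
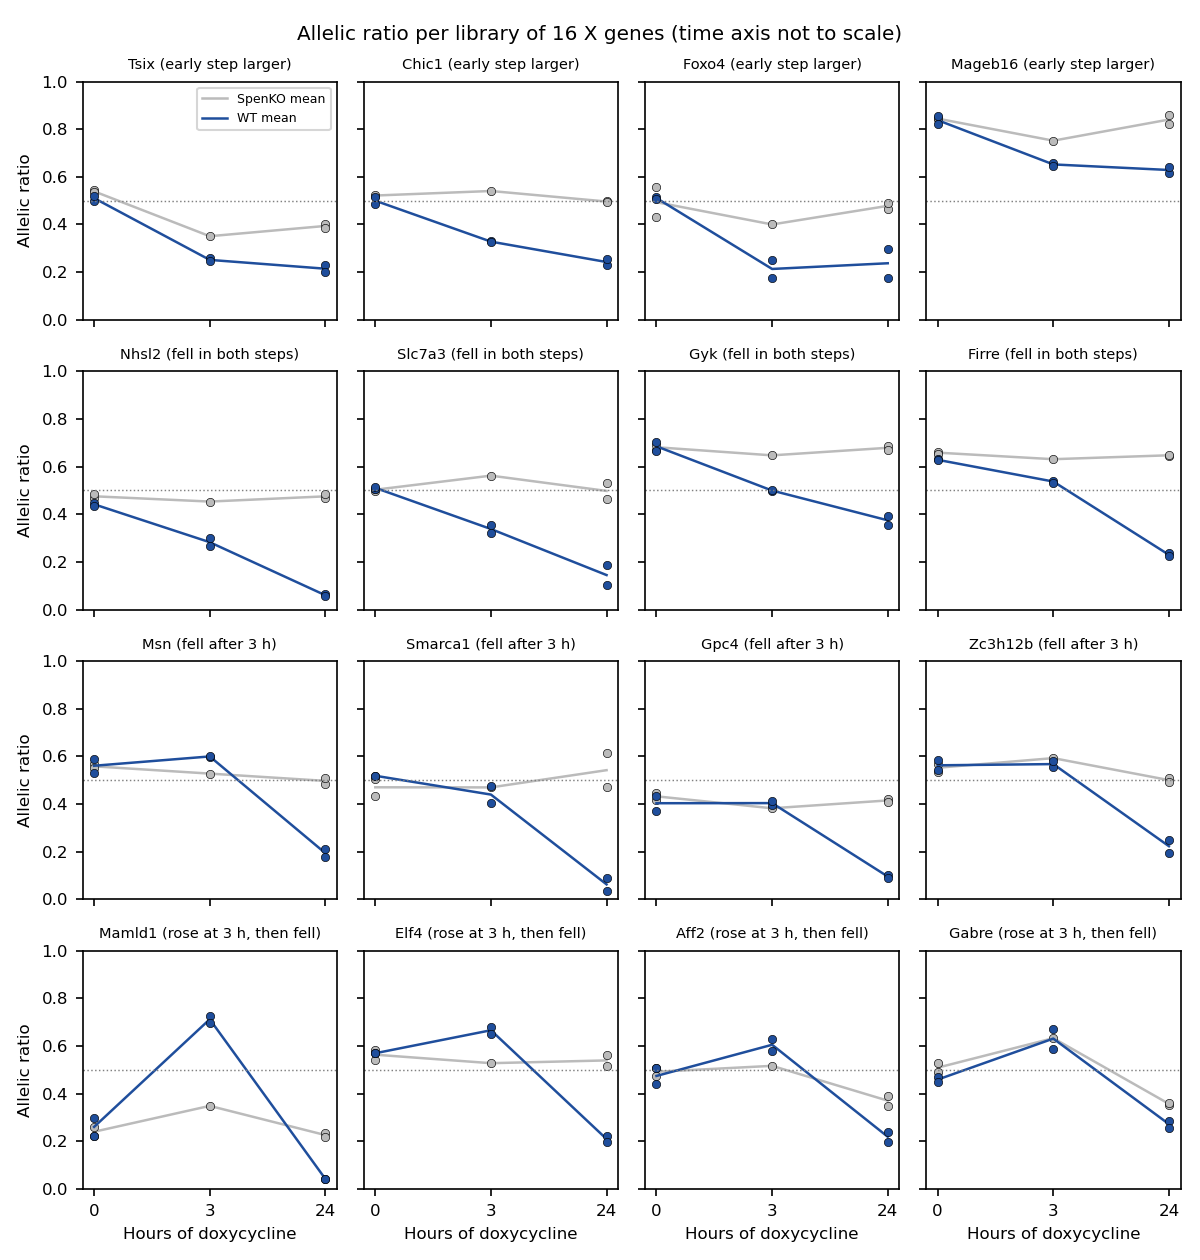
Allelic ratio (0 to 1) at 0, 3 and 24 h of doxycycline for 16 genes in WT (blue) and SpenKO (grey); each point is 1 library, lines join group means, and the time axis is not to scale. Tsix is near its 24 h level at 3 h, Firre and Nhsl2 fall in both steps, Msn and Gpc4 fall after 3 h, and Mamld1 and Elf4 stand higher at 3 h than at 0 h.

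The 39 genes that fell in both steps include several close to Xist. Of the 39, the late step was larger in 16, the early step in 1 (Chic1), and 22 passed neither way. Nhsl2 (101849384 to 102092055), a Nance-Horan syndrome-like gene, was at 0.448 and 0.436, then at 0.265 and 0.3, then at 0.0647 and 0.0552. It thus reached a nearly complete loss of the 129S share in 2 falls, of -0.159 ± 0.0179 and -0.223 ± 0.0179 (SE, adjusted p = 9.64e-05 and 7.62e-07 in limma).

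Slc7a3, a cationic amino acid transporter gene, was at 0.506 and 0.515, then at 0.356 and 0.320, then at 0.103 and 0.186. Stard8, a gene for a protein with a lipid-binding START domain, was at 0.321 and 0.314, then at 0.186 and 0.189, then at 0.0418 and 0.0477. In both genes the steps were nearly equal: the late step minus the early step was -0.0207 ± 0.0540 for Slc7a3 and -0.0133 ± 0.0187 for Stard8 (adjusted p = 0.740 and 0.554 in limma). Their early shares were 47.2% and 47.6%. Gyk, the glycerol kinase gene, started high at 0.704 and 0.666 and went through 0.497 and 0.502 to 0.393 and 0.356. It had made 59.8% of its fall by 3 h.

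Phka1, a phosphorylase kinase subunit gene, Tex11, a meiosis gene, and Zmym3, a zinc finger gene of a histone deacetylase complex, had early shares of 42.4%, 36.3% and 36.9%. Firre (50555743 to 50635258), a long noncoding RNA gene, was at 0.631 and 0.626, then at 0.541 and 0.533, then at 0.236 and 0.223. Here the second fall, of -0.308 ± 0.00971, was the larger by 0.216 ± 0.0168 (adjusted p = 7.88e-06 in limma). 4933407K13Rik, the transcript of the Dxz4 region that anchors the fold of the inactive X, changed by -0.0997 ± 0.0218 and then by -0.120 ± 0.0218 (adjusted p = 0.00703 and 0.000403).

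A group of 14 genes had a higher 129S share at 3 h than at 0 h and then fell. In each of the 14 the late step was the larger fall, which the choice of the group favours. Mamld1 (71050255 to 71154717), a gene known for its part in male sexual development, was at 0.224 and 0.298 at 0 h, 0.726 and 0.699 at 3 h, and 0.0435 and 0.0417 at 24 h. It moved from a Cast bias to a 129S bias and then to near loss of the 129S share. Its late change of -0.670 ± 0.0633 (SE, adjusted p = 2.75e-06 in limma) was the largest of all 270 genes.

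Elf4 (48411048 to 48463132), an ETS transcription factor gene, was at 0.571 and 0.569, then at 0.682 and 0.651, then at 0.222 and 0.198. The change was -0.456 ± 0.0225 in the late step (adjusted p = 5.90e-08 in limma) after 0.0964 ± 0.0225 in the early one. Cybb, an NADPH oxidase subunit gene of phagocytes, was at 0.595 and 0.468, then at 0.745 and 0.843, then at 0.567 and 0.321. Cybb, Ebp, a sterol isomerase gene, and Ndufb11, a gene of respiratory complex I, did not pass between 0 h and 24 h. A net fall was thus not shown for these genes, but a missed call does not show a return to the 0 h level. In Cybb 1 library at 24 h (0.321) lay below both at 0 h.

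Aff2, a gene of the AFF family of elongation factors, was at 0.441 and 0.508, then at 0.630 and 0.581, then at 0.199 and 0.241. Gabre, a GABA receptor subunit gene, was at 0.469 and 0.451, then at 0.673 and 0.590, then at 0.287 and 0.258. Flna, which encodes filamin A, an actin crosslinker, was at 0.513 and 0.519, then at 0.576 and 0.563, then at 0.242 and 0.238. In these 3 genes no library of 1 time overlapped another time. The others of the 14 were Shroom4, Lancl3, Atp6ap2, 1810030O07Rik, Med14 and Renbp, with early rises from 0.0430 ± 0.0139 in Med14, a Mediator subunit gene, to 0.125 ± 0.0261 in Lancl3 (adjusted p = 0.0485 and 0.00577 in limma).

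The lone SpenKO library at 3 h gives values from another line at that time. There 11 of the 14 genes (78.6%) were above the SpenKO mean at 0 h, against 131 of all 270 (48.5%). Cybb stood at 0.945 against 0.556 at 0 h, Mamld1 at 0.349 against 0.241 and Gabre at 0.633 against 0.510. Elf4 stood at 0.528 against 0.564. With 1 library, SpenKO at 3 h has no replicate check, and the shares were not tested.

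The largest late falls beside these were in genes at 0.403 or above in both libraries at 3 h. Timp1, which encodes an inhibitor of matrix metalloproteinases, was at 0.557 and 0.613, then at 0.797 and 0.765, then at 0.408 and 0.256. Its late change was -0.449 ± 0.0702 (SE, adjusted p = 0.000138 in limma), and its early rise did not pass (adjusted p = 0.0676). Msn (96096044 to 96168553), which encodes moesin, a linker of actin to the membrane, was at 0.590 and 0.531, then at 0.597 and 0.602, then at 0.178 and 0.209. The 0 h and 3 h libraries were alike and both 24 h libraries far lower, with a late change of -0.406 ± 0.0216 (adjusted p = 7.32e-08).

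Smarca1 (47809369 to 47892552), an ISWI chromatin remodeller gene, was at 0.519 and 0.518, then at 0.403 and 0.476, then at 0.0909 and 0.0345, a late change of -0.377 ± 0.0589 (adjusted p = 0.000138 in limma). Pja1, a ubiquitin ligase gene, went from 0.478 and 0.500 at 3 h to 0.0625 and 0.0714 at 24 h. Prrg3, a membrane protein gene with a vitamin K-dependent domain, went from 0.529 and 0.588 to 0.116 and 0.235. Ccdc120 went from 0.621 and 0.533 to 0.192 and 0.203, and Porcn, whose product attaches lipid to Wnt proteins, from 0.583 and 0.487 to 0.125 and 0.221. In none of these 5 genes did the 3 h and 24 h libraries overlap, which was a condition for naming them.

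Lists of genes by function were compared with the table as a whole, in which 85.6% of genes fell late with a median of -0.178. In the early step 17.0% of all genes fell and 5.19% rose, the shares against which the early counts below stand. Some genes stand in several lists. Of 38 genes of chromatin and transcription 35 fell late (median -0.179), 8 had fallen at 3 h and 2 had risen. Zfp280c, a zinc finger gene, went from 0.574 and 0.583 to 0.241 and 0.280, and Bcorl1, a corepressor gene of the Polycomb system, from 0.602 and 0.691 to 0.388 and 0.338. Among 23 genes for RNA processing or translation, 20 fell late (median -0.138) and 3 had fallen at 3 h. Zc3h12b, of a family of RNA-degrading zinc finger proteins, changed by -0.345 ± 0.0245 and the splicing regulator gene Rbmx by -0.254 ± 0.0175 (SE, adjusted p = 2.98e-07 and 2.32e-07 in limma). The ribosomal protein gene Rpl10, which has many processed copies, was at 0.591 and 0.571 at 3 h and 0.565 and 0.544 at 24 h and did not pass (adjusted p = 0.219).

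Of 35 genes of metabolism and mitochondria 31 fell late (median -0.180) and 1 rose (Slc25a5), while 6 had fallen and 5 had risen at 3 h. Aifm1, a mitochondrial flavoprotein gene of cell death, went from 0.508 and 0.553 to 0.278 and 0.290. Slc9a7, a sodium-proton exchanger gene, and Pcyt1b, of phosphatidylcholine synthesis, changed by -0.263 ± 0.0179 and -0.237 ± 0.0223. Of 12 ubiquitin genes 10 fell late (median -0.160) and 1 had fallen at 3 h: Klhl15, a cullin adaptor gene, which went from 0.529 and 0.511 through 0.424 and 0.429 to 0.263 and 0.249. Cul4b, a cullin gene, and Xiap, an inhibitor of caspases, changed late by -0.274 ± 0.0401 and -0.241 ± 0.0272 (adjusted p = 8.48e-05 and 1.08e-05 in limma).

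Of 19 neural genes 18 fell late (median -0.218), 6 had fallen at 3 h and 2 had risen. L1cam, an axon adhesion molecule gene, went from 0.469 and 0.421 at 3 h to 0.167 and 0.100 at 24 h. Gria3, a glutamate receptor subunit gene, went from 0.478 and 0.495 to 0.208 and 0.169. Of 11 genes of muscle and actin 10 fell late (median -0.238), with 2 fallen and 2 risen at 3 h. Fhl1, a LIM protein gene of muscle, was at 0.501 and 0.518 at 3 h, where it had been at 0 h (0.514 and 0.507), and at 0.214 and 0.216 at 24 h.

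Of 22 genes of pluripotency, germline and early development 15 fell late (median -0.195), and 6 had fallen at 3 h. Gpc4, a glypican gene, went from 0.395 and 0.412 to 0.104 and 0.0878. Eda, the ectodysplasin gene, changed by -0.242 ± 0.0166 (SE, adjusted p = 2.30e-07 in limma). The list holds 7 genes of the Xlr family (singled out after their values were seen), whose copies may share reads: 2 fell late and 5 did not pass. Mageb16 did not pass either.

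Of 9 escape genes 8 fell late (median -0.120), the exception being Xist, at 0.998 to 0.999 in the 4 libraries. Kdm6a, a histone demethylase gene known to escape, was at 0.555 and 0.546 at 3 h and 0.526 and 0.527 at 24 h, a change of -0.0240 ± 0.00868 (SE, adjusted p = 0.0227 in limma). This did not pass without the first 3 h library or either 24 h library (-0.0197, -0.0235 and -0.0246, adjusted p = 0.115, 0.0666 and 0.0573). Eif2s3x, a translation initiation factor gene, changed by -0.0587 ± 0.0163, Utp14a, of ribosome assembly, by -0.104 ± 0.0101 and Ddx3x, an RNA helicase gene, by -0.138 ± 0.0119. For these 4 genes the early step did not pass, and their falls were smaller than the median gene's. Other genes of the list behaved otherwise: Firre and 4933407K13Rik had fallen at 3 h, and Shroom4 and 1810030O07Rik had risen. Their late changes were -0.308 (Firre), -0.120 (4933407K13Rik), -0.257 (Shroom4) and -0.178 (1810030O07Rik). At the X inactivation centre, the region that controls Xist, 1 of 4 genes fell late (Chic1; median -0.0613) and 2 had fallen at 3 h (Tsix and Chic1). Nap1l2, a nucleosome assembly gene, was at 0.212 and 0.111 at 3 h and 0.0370 and 0 at 24 h and did not pass (-0.143, adjusted p = 0.178 in limma). It passed on the logit scale and with only the 3 h and 24 h libraries in the fit (adjusted p = 0.00390 and 0.0457), which makes the count 2 of 4, and without the first 3 h library its change was -0.0926 (adjusted p = 0.491).

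Markers of feeder fibroblasts were followed because feeders add RNA from other cells. Of 12 such genes 11 fell late, with a median of -0.291, and 1 had fallen and 1 had risen at 3 h. Their median ratio was 0.514 and 0.513 at 0 h, 0.492 and 0.522 at 3 h, and 0.250 and 0.240 at 24 h. Timp1, Msn, Flna, Cd99l2, Fhl1 and Gpc4, with large late falls, are all in this list. The amount of feeder RNA was not measured, and its part in the late falls was not tested.

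**Figure D3:**
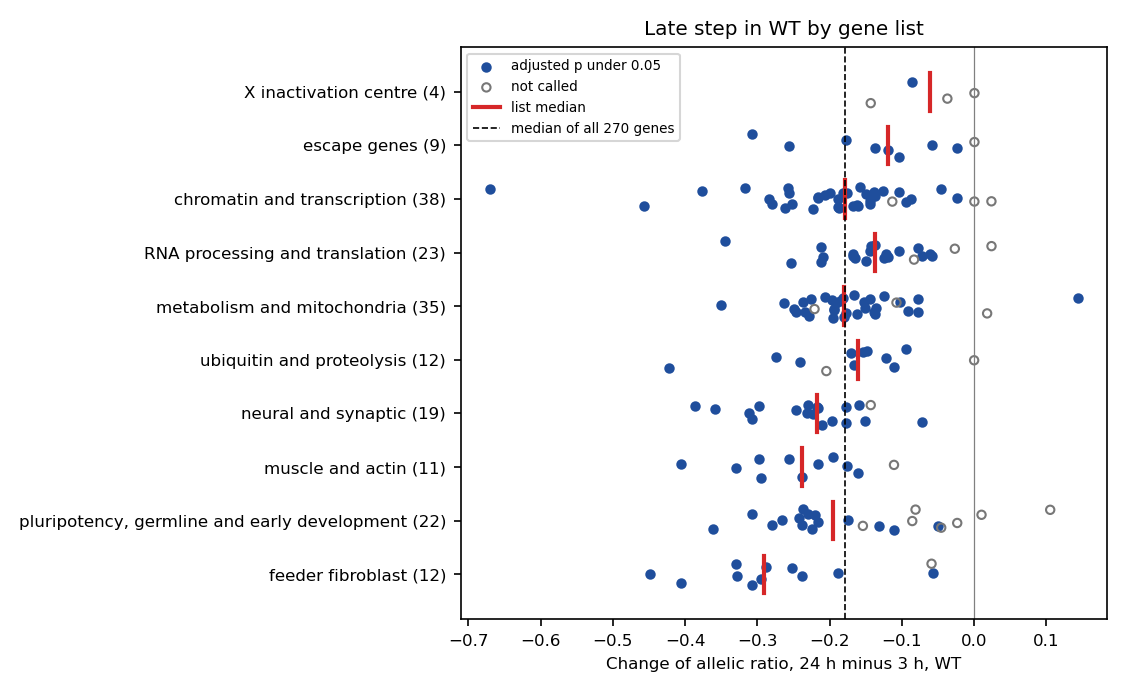
Change of allelic ratio from 3 h to 24 h in WT for each measured gene of 10 lists (1 point per gene; filled, adjusted p under 0.05; open, not called; red bar, list median; dashed line, median of all 270 genes at -0.178). List medians run from -0.0613 at the X inactivation centre to -0.291 for feeder fibroblast genes.

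The steps were distributed differently along the measured part of the X, which ends near Xist. The stretch of the chromosome beyond Xist is not described here. In the 25 genes from 100 Mb to Xist, the median change was -0.0986 in the early and -0.149 in the late step. There 20 genes fell late, the late step was larger in 4 and the early step in 3, and the median early share was 37.0%. In the 54 genes of the first 20 Mb, farthest from Xist, the medians were 0.0294 and -0.166. There 46 fell late, the late step was larger in 37, and the median early share was -14.0%.

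The late fall itself varied less with position, with medians between -0.149 and -0.228 in the 6 bands of up to 20 Mb. For the early step the band medians ran from 0.0294 to -0.0986. The Spearman correlation of the late fall with distance to Xist over 269 genes was -0.109, and that of the early share over 225 genes was -0.513. These 2 correlations use unlike measures, a change and a share of the whole fall, and different sets of genes. The genes share libraries and neighbourhoods, so these are descriptions without a test. With gene length the correlations were -0.155 for the late step and -0.0375 for the early share. With the number of CG in the promoter they were 0.00774 (207 genes) and 0.0127 (169 genes).

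The timing groups differ in place accordingly. The median distance to Xist was 23.8 Mb for the 7 genes finished at 3 h, 17.8 Mb for those that fell in both steps, 50.2 Mb for the late genes and 86.8 Mb for those that rose and then fell, against 44.9 Mb for all genes. Within 25 Mb of Xist lay 4 of 7, 22 of 39, 33 of 178 and 0 of 14, against 62 of all 270 genes (23.0%). No gene finished at 3 h or falling in both steps lay beyond 60 Mb from Xist, where 94 of the 270 genes lie.

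**Figure D4:**
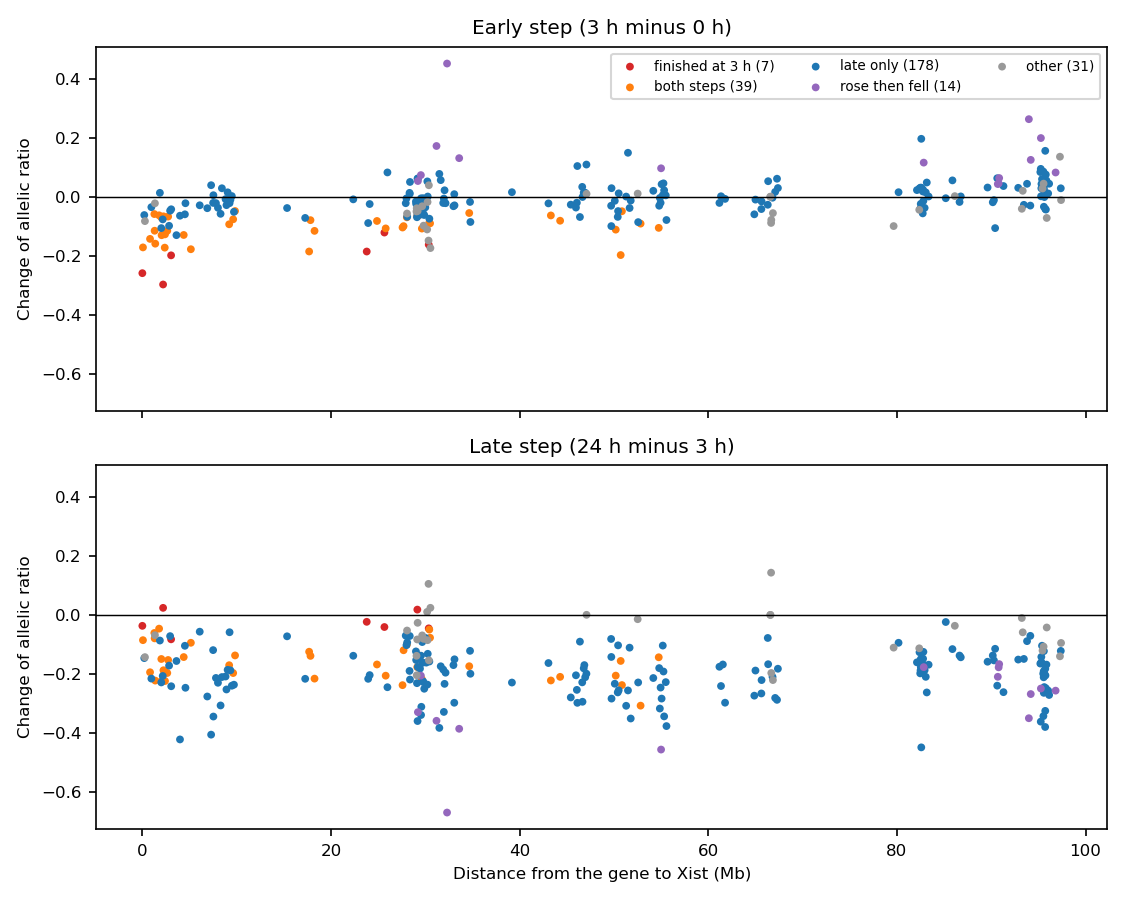
Change of allelic ratio in the early step (upper) and the late step (lower) of WT against distance from the gene to Xist in Mb; each point is 1 of 269 genes other than Xist, coloured by timing group. Early falls cluster within about 60 Mb of Xist, while late falls are found along the whole measured X.

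Promoters were matched for 208 of 270 genes. The median number of CG in the 300 bases was 16.5 over these genes, against 7 over all 32851 mouse RefSeq promoters of the table. It was 20 in 30 genes that fell in both steps, 16 in 133 late genes, 17 in the 14 that rose and then fell and 5.5 in 4 genes finished at 3 h. The GC box GGGCGG, searched on both strands, was found in 62.5% of the 208 promoters and 35.7% of all. By group it was found in 80% of genes falling in both steps, 60.2% of late genes, 78.6% of those that rose and then fell, and 3 of the 4 finished at 3 h. A match is a description of the sequence and not a binding site.

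The timing groups were also set beside ratios in other lines and in NPC, which did not define them (the SPOCmut libraries entered only the shared spread). In SPOCmut the median change from 0 h to 24 h was -0.0781 in the genes finished at 3 h, -0.0803 in those falling in both steps, -0.0721 in the late genes and -0.0134 in those that rose and then fell, against -0.0658 over all genes. In WT at 24 h, whose libraries helped define the groups, the median ratios were already 0.259, 0.261, 0.293 and 0.293. In CIZ1 KO at 24 h the median ratios were 0.249, 0.255, 0.304 and 0.312 (6, 39, 166 and 12 genes measured), against 0.306 over all genes. In the WT NPC library they were 0.0276, 0.0278, 0.0597 and 0.0954, against 0.0558 over all genes. The 6 genes finished at 3 h ranged there from 0 to 0.359. In the single CIZ1 KO NPC library at day 30 they were 0.0901, 0.0655, 0.0907 and 0.0911, against 0.0847 over all genes. The genes finished at 3 h were thus among the lowest in CIZ1 KO ES cells and WT NPC but not in CIZ1 KO NPC, and the ranges of the groups overlapped. These are descriptions over genes, with no test.

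**Figure D5:**
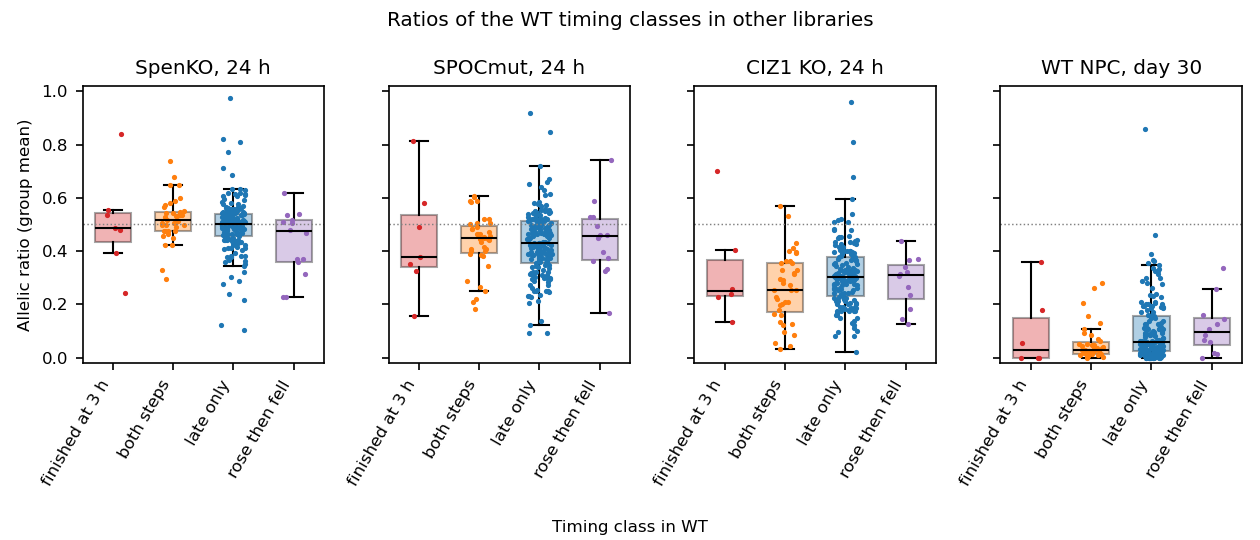
Allelic ratio (group mean, 0 to 1) of the genes of each WT timing group in SpenKO, SPOCmut and CIZ1 KO at 24 h and in the WT NPC library at day 30; each point is 1 gene and boxes show median and quartiles. In NPC the group medians run from 0.0276 to 0.0954, and in SpenKO from 0.474 to 0.515.

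In SpenKO the late step was smaller than in WT. The late step of SpenKO minus that of WT was above 0 in 181 of 270 genes (67.0%) and below 0 in 0 (0.00%; 192 and 0 at an unadjusted p under 0.05 in limma), with a median of 0.166. In this test the single SpenKO library at 3 h takes its spread from the groups with replicates. Genes were named in part by the size of their WT late step, which favours large differences in those named. Firre was at 0.631 in SpenKO at 3 h and at 0.647 at 24 h, against 0.537 and 0.230 in WT, a difference of late steps of 0.324 ± 0.0154 (SE, adjusted p = 1.54e-07 in limma). For Flna the difference was 0.2999 ± 0.0217, for Gpc4 0.341 ± 0.0333, for Zfp280c 0.354 ± 0.0258 and for Msn 0.375 ± 0.0342 (adjusted p between 3.14e-06 and 1.25e-05).

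Among the genes whose early step was the larger, Tsix in SpenKO went from 0.539 at 0 h to 0.351 at 3 h and 0.394 at 24 h, so its ratio was lower at 3 h in this line too. The difference of late steps was 0.0801 ± 0.0334 (adjusted p = 0.0540 in limma). Chic1 in SpenKO was at 0.521, 0.540 and 0.496, and Foxo4 at 0.493, 0.4 and 0.478. Their differences of late steps were 0.0414 ± 0.0237 and 0.0541 ± 0.0984 (adjusted p = 0.139 and 0.626). Neither passed.

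Replicate libraries agreed closely. Over genes, pairs of libraries of 1 group correlated by 0.858 to 0.903, and at most 1.11% of values were exactly equal between replicates. The median absolute difference between the 2 libraries was 0.0250 at 3 h and 0.0329 at 24 h.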

How the data were processed

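Chromatin-associated RNA was made into stranded libraries (TruSeq total RNA), per the labels' protocols. The authors deposited, for each gene in each library, an allelic ratio, which is a fraction between 0 and 1, with gene coordinates and lengths in mm10. STAR 2.4.2a, Bowtie2 2.3.2, featureCounts, edgeR, bedtools and SAMtools are named by the submitters' processing notes, with no role for any. Not given in the sources used here are the allele in the numerator, the strand setting and the filter behind the gene list. No read counts accompany the deposited fraction, so counting error has no interval here. Doxycycline columns without an hour were taken as 24 h, since the same table names its 3 h columns apart.

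All 17 libraries (8 groups) of the table of 270 X genes were fitted together on untransformed ratios with limma 3.58.1 (R 4.3.3) and without a replicate block. P-values were adjusted by Benjamini-Hochberg over all its genes, and calls were made at adjusted values under 0.05. Distance was taken from the gene to Xist. CIZ1 KO and NPC values come from a second deposited table of 254 X genes, 248 of them shared. A table of chromosome 15 genes, with no 3 h library, was not used here. The fit of 24 h against 3 h was also run on data simulated with independent normal noise. That run does not cover the limits of a ratio, the unknown depth, or the calls of the early step and of the difference of steps. Genes were named from these groups: the 10 largest late falls and any late rise, all genes finished at 3 h, up to 10 with a larger early or late step, all that rose and then fell, the 10 largest early falls among genes falling in both steps, the escape and X inactivation centre genes, up to 5 per other list, and the highest at 24 h without a call. The 10 largest late falls and the late rise were taken only among called genes whose 3 h and 24 h libraries did not overlap. The members, lists and rules were chosen with earlier results of these data known. Alternatives changed the scale, the libraries in the fit, the prior, the adjustment, the gene filter, the minimum change, the threshold and each library in turn. Reads of overlapping genes and of families with similar copies may be shared.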

Additional observations from a re-analysis of the deposited data

Results flagged for a closer look

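The late step differed between SpenKO and WT, by an interaction test in limma, in 181 genes, and in each of them the SpenKO fall was the smaller. The largest differences among the named genes, SpenKO minus WT, were 0.547 ± 0.100 (SE) for Mamld1, 0.468 ± 0.0356 for Elf4, 0.449 ± 0.0932 for Smarca1, 0.428 ± 0.111 for Timp1 and 0.379 ± 0.0763 for Gria3 (adjusted p = 0.000813, 3.86e-06, 0.00185, 0.00651 and 0.00157 in limma). The SpenKO arm at 3 h is 1 library, whose spread was taken from the other groups. It could not be left out, so no value shows how far the differences depend on it. In Mamld1, Elf4 and Timp1 both WT libraries at 3 h stood above both at 0 h. The named genes were chosen in part by the size of their WT late step, which favours large differences.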

How the results depend on the processing

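The late fall of 231 genes and the larger late step of 154 genes stayed within 1.5 times in number under every alternative run, except that 153 genes fell when a minimum change of 0.1 was tested. The median difference between the times ran from -0.181 to -0.186 with other summaries or genes and from -0.178 to -0.191 without 1 library. Slc25a5 was no longer called as a late rise (0 genes) with only the libraries of the comparison, with Benjamini-Yekutieli adjustment, with the minimum change of 0.1 and without the second 3 h library. The call was lost too without the second 24 h library (0.0833), where 1 other gene was called instead. Early counts moved most: with only the libraries of the comparison 1 gene fell and 1 rose, with a minimum change of 0.1 4 fell and 1 rose, and with Benjamini-Yekutieli adjustment 6 rose and 2 genes had a larger early step. On the logit scale 1 gene fell more in SpenKO. With an adjusted p under 0.01, 7 genes rose and then fell and 56 followed no pattern; under 0.1, 23 rose and then fell. With the WT libraries alone 16 fell in both steps and 5 rose and then fell. The cause of these shifts was not tested.

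Without 1 library at a time, 215 to 222 genes fell and 0 to 1 rose late, 33 to 41 fell and 8 to 13 rose early, and 217 to 230 fell and 0 to 1 rose between 0 h and 24 h. The late step was then larger in 123 to 151 genes and the early step in 2 to 6, and the late fall was smaller in SpenKO in 164 to 176 and larger in 0 to 1. With the replicate block, 233 genes fell and 1 rose late, 47 fell and 18 rose early, 153 had the larger late and 5 the larger early step, 244 fell from 0 h to 24 h, and 187 fell less in SpenKO. Deviations of same-numbered libraries correlated by -0.0883, 0.101 and 0.161, so the numbers were not taken to pair the libraries. For the late step of 66 named genes, 698 values kept sign and call, 16 lost it, 3 gained it and 3 turned sign. These were Foxo4 (-0.0128 without the second 3 h library; -0.0368 to 0.0846 over all libraries left out) and Atp6ap1 (-0.00414 to 0.0401), whose lowest values came without the first 24 h library. For the difference of steps of 45 named genes, 502 values kept sign and call and 35 lost the call. The depth is unknown, so what it limits could not be assessed.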
